A study of Mus musculus with 2 samples.

Results

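The regions described here were called in sample 2 of a Myc-tag ChIP-seq study of mouse corneal epithelium, scored at least as high as the weakest sample 1 region, and had no counterpart in sample 1. They were chosen by 2 measured values, the score and the overlap between the lists: a region on chromosomes 1 to 19 or X qualified when its score was at least 70.03, the lowest in the sample 1 list, and it shared no base with any sample 1 region. The rule kept 11170 of the 42619 sample 2 regions, or 11170 of the 68211 regions in both lists together. They are called sample 2-only regions below, and sample 2 regions of the same score range that do overlap sample 1 are called shared regions. Because score and overlap chose the set, its scores and its lack of overlap are descriptions and were not tested.

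Both samples belong to 1 group. The chromatin came from the corneal epithelium of mice at postnatal day 7 that carry the K14 DN-Clim transgene, and the Myc epitope carried by the transgenic protein was the target of the precipitation. The keratin 14 promoter is active in the basal cells of stratified epithelia, so the tagged protein is made under that promoter and is not the native cofactor. Nothing in the labels says whether the samples came from separate animals, so differences between them may be technical. No input, wild-type or untagged library was analysed here. The lists give no read totals, and the depth behind each region is unknown. A region in sample 2 alone may thus have been absent from sample 1 or missed there, and these cases cannot be told apart.

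Clim (Ldb, Nli) cofactors are nuclear adaptors that bind LIM-homeodomain and LIM-only transcription factors and dimerise, which brings distant regulatory elements together. They do not touch DNA themselves, and reach it through partners such as Lhx, Isl, Lmo and GATA or bHLH factors. Dominant-negative Clim keeps the part that binds LIM domains but lacks the dimerisation part, and therefore occupies LIM factors without bridging them. In the cornea, the basal epithelium and its limbal rim hold the proliferating and progenitor cells. The lists use mm9 coordinates, and neither the sequence nor the genes of the regions were analysed here.

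Of the 26898 sample 2 regions at or above the floor on these chromosomes, 41.5% (exact, or Clopper-Pearson, 95% interval 40.9 to 42.1%) had no sample 1 overlap. Below the floor it was 10749 of 15640 regions, or 68.7%. In the opposite direction 4986 of 25543 sample 1 regions, or 19.5%, had no overlap with the longer sample 2 list. The sample 2-only regions covered 1099 kb in all. They made up 50.96% of the 21919 unmatched sample 2 regions, the remainder lying below the floor. The floor takes the score scales of the lists to be equal, which was not tested. The lowest score was 50 in sample 2 and 70.03 in sample 1, so the lists did not begin at the same score. The intervals throughout cover counting over regions and treat regions as independent.

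The scores of the sample 2-only regions lay close together. The lowest was 70.03, the quartiles were 80.8, 94.7 and 114.4, and the 99th percentile was 183.4. The shared regions had a median of 110.05 and a 99th percentile of 309.6. Scores of 200 or more were held by 44 sample 2-only and 1133 shared regions. At the edge of the rule, the weakest sample 2-only regions scored 70.03, among them a 236 bp region on chromosome 11, and the strongest regions left out scored 70.02. Within 1 score unit above the floor, 207 of 388 regions (53.4%) had no overlap, and within 1 unit below it 366 of 770 (47.5%). The median width of these unmatched regions was 129 bp above and 122 bp below the floor. Narrow regions, under 100 bp, made up 23.2% of them above and 37.7% below, so close to the floor the unmatched regions above it were the wider ones, the opposite of the whole sets given next.

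The sample 2-only regions were narrower than the unmatched regions below the floor. Their median width was 67 bp (order-statistic 95% interval 67 to 68 bp), with quartiles of 59 and 122 bp and a range from 52 to 1430 bp. The median was 90 bp (89 to 92) in the shared regions and 131 bp (131 to 132) in the unmatched regions below the floor. The most frequent width was 56 bp in the sample 2-only regions, 61 bp in the shared and 141 bp in those below the floor. Regions narrower than 100 bp are called narrow and the others wide. Narrow regions made up 68.7% (67.8 to 69.6%) of the sample 2-only regions, 54.5% (53.7 to 55.3%) of the shared regions and 21.5% (20.7 to 22.3%) of those below the floor. Regions under 60 bp alone were 28.5% of the sample 2-only and 12.8% of the shared regions, 3187 and 2020 in number. The sequencing protocol used 50 cycles, so such a region is little longer than a read. No sample 1 region on these chromosomes was narrower than 65 bp. No test was run between the sets, because width bears on the chance of an overlap and overlap chose the sets.

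**Figure D1:**
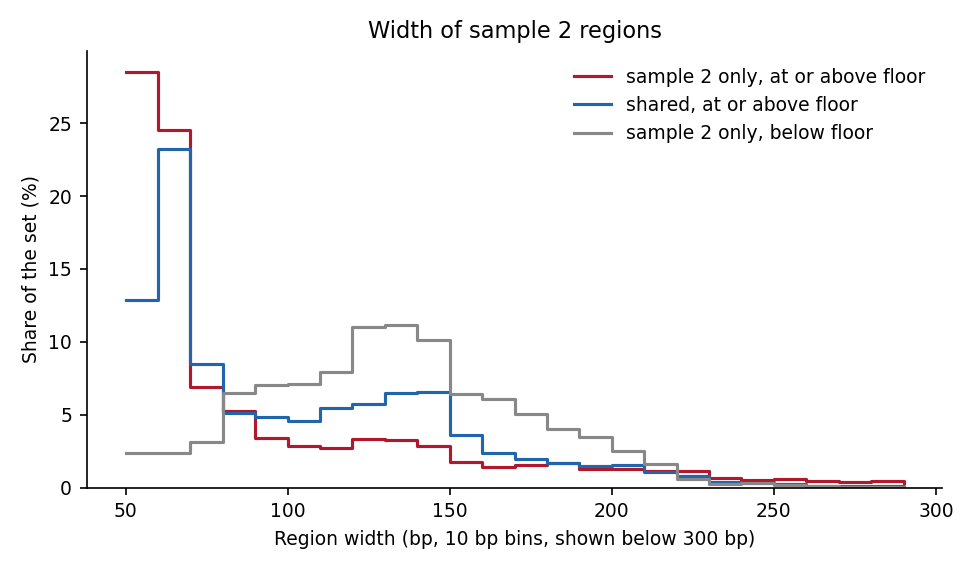
Width of sample 2 regions in bins of 10 bp below 300 bp (horizontal) against the share of each set in percent (vertical), for the sample 2-only regions at or above the floor, the shared regions at or above the floor and the sample 2-only regions below it. The sample 2-only regions at or above the floor peak in the narrowest bin, where they hold 28.5% of their set, while those below the floor are spread around their median of 131 bp.

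The unmatched share followed the score differently in narrow and wide regions. Of the narrow regions at or above the floor, 7674 of 16249 (47.2%, 46.5 to 48.0%) had no sample 1 overlap, and of the wide ones 3496 of 10649 (32.8%, 31.9 to 33.7%). Among narrow regions the unmatched share was 58.0% at scores from the floor to 80, 57.4% from 80 to 90, 55.7% from 90 to 100, 58.1% from 100 to 110 and 53.4% from 110 to 120. It then fell to 42.8% from 120 to 140, 34.2% from 140 to 160, 19.03% from 160 to 200 and 4.54% at 200 or more. Among wide regions it was lower in each successive band, from 51.7% below 80 to 34.1% between 90 and 100, 24.4% between 110 and 120 and 10.9% between 140 and 160. Up to a score of 120 the unmatched share of these bands thus stayed between 53.4% and 58.1% for narrow regions, with the lowest value in the last band. Single scores within these bands differed more from each other. In the band from 110 to 120 the intervals were 51.0 to 55.8% for narrow and 21.5 to 27.6% for wide regions. At 200 or more they overlapped, at 3.06 to 6.45% and 1.57 to 4.56%.

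**Figure D2:**
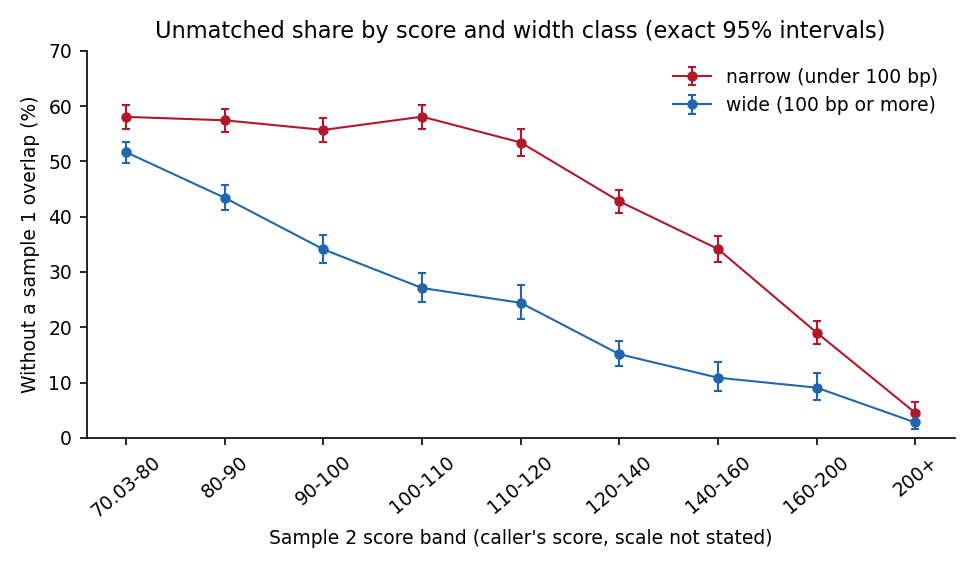
Share of sample 2 regions without a sample 1 overlap in percent (vertical) by score band (horizontal), for narrow regions under 100 bp and wide regions of 100 bp or more, with exact 95% intervals. Narrow regions stay between 53.4% and 58.1% up to a score of 120, while wide regions go from 51.7% to 24.4% over the same bands.

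By width, the unmatched share of sample 2 regions at or above the floor was highest in the narrowest regions and again at 250 bp to under 300 bp. It was 75.4% (72.0 to 78.5%) for regions under 55 bp, 59.0% from 55 to 59 bp, 45.8% from 60 to 64 bp and 38.1% from 65 to 69 bp. The lowest value, 24.2% (22.4 to 26.1%), was that of regions of 140 to 159 bp. Above that width it was higher again, at 36.3% from 160 to 199 bp, 44.8% from 200 to 249 bp and 71.3% (66.3 to 76.0%) at 250 bp to under 300 bp. Beyond that it was 65.4% (58.1 to 72.2%) from 300 to 399 bp and 46.9% (32.5 to 61.7%) for the 49 regions of 400 bp or more. A wider region has more bases with which to meet a sample 1 region. In sample 2 regions below the floor the unmatched share also fell over the narrowest widths, but it was higher again from 65 bp on. It was 46.4% (33.0 to 60.3%) under 55 bp, 37.9% from 55 to 59 bp and 27.3% from 60 to 64 bp. From 65 to 69 bp it was 40.1%, from 70 to 79 bp 62.0% and from 80 to 99 bp 74.8%. Sample 1 held no region under 65 bp on these chromosomes, so the narrowest widths of sample 2 have no equivalent there. Among the narrowest widths that sample 1 did hold, from 65 to 69 bp, its unmatched share was 37.3% (34.5 to 40.2%). It was 10.4% from 80 to 99 bp. At 250 bp to under 300 bp, where sample 2 had its second peak, 44 of 304 sample 1 regions (14.5%, 10.7 to 18.9%) were unmatched. The widest sample 1 regions were unmatched in 23.6% (14.4 to 35.1%) from 300 to 399 bp and in 36.0% (17.97 to 57.5%) of the 25 regions of 400 bp or more. Sample 1 was compared with the whole sample 2 list and sample 2 with a shorter list, so the levels of these shares are not directly comparable, but their order over the widths can be read within each list.

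**Figure D3:**
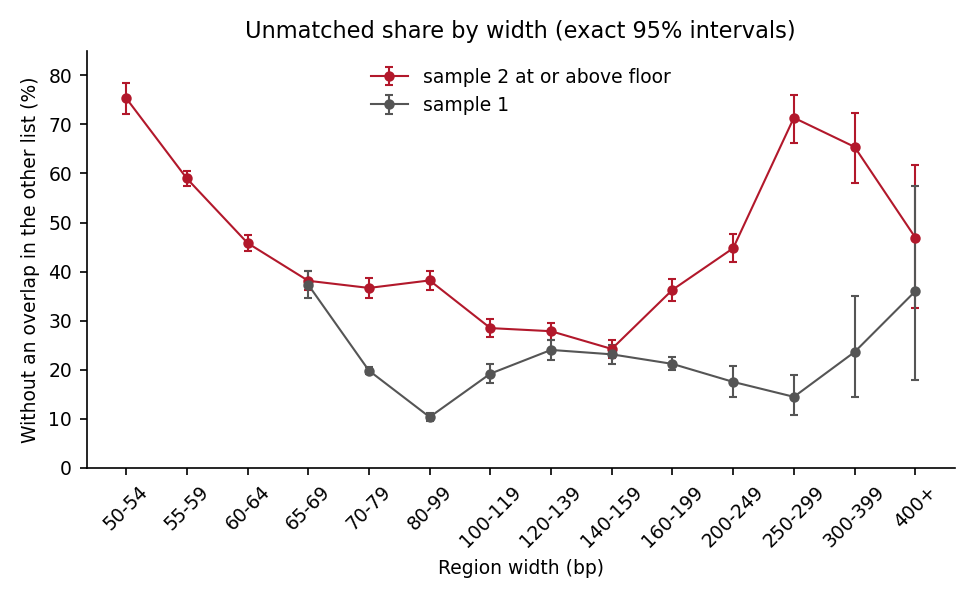
Share of regions without an overlap in the other list in percent (vertical) by width band in bp (horizontal), for sample 2 regions at or above the floor and for all sample 1 regions on the same chromosomes, with exact 95% intervals. Sample 2 is highest under 55 bp (75.4%) and at 250 bp to under 300 bp (71.3%), while sample 1 has 14.5% there and is highest from 65 to 69 bp (37.3%) and at 400 bp or more (36.0%).

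The wide end held 393 sample 2-only regions of 250 bp or more, against 190 shared ones. Their unmatched share was 67.4% (63.4 to 71.2%). They scored below shared regions of that width, with medians of 101.3 and 185.7, and above the wide sample 2-only regions as a whole, whose median was 83.8. Regions of 300 bp or more made up 1.29% (1.09 to 1.52%) of the sample 2-only and 0.572% (0.460 to 0.703%) of the shared regions. Chromosome X held 2 of the 393, which is 0.081 times its share of the spanned length (0.0098 to 0.291). Chromosome 5 held 39, or 1.71 times its share (1.23 to 2.29), and chromosome 10 held 31, or 1.60 times (1.10 to 2.24). Shared regions of that width were also low on X, at 0.420 times (0.137 to 0.962). They had 1.36 times on chromosome 5 (0.773 to 2.19) and 0.535 times on chromosome 10 (0.175 to 1.23). The widest sample 2-only region was one of 1430 bp at chr13:120281668-120283097. Its score was 106.06, and it lay 4.23 kb from the nearest sample 1 region. On chromosome 11, a 706 bp region from 3003169 to 3003874 began a short distance from a sample 1 region of 3003912 to 3004467, with 37 bp between them. Its score was 116.31 and that of the sample 1 region 115.73. It belonged to a run of 3 sample 2-only regions within 2029 bp, all of them 260 bp or wider.

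The scores of the narrow regions took few values. The 7674 narrow sample 2-only regions held 1034 distinct scores, while the 3496 wide ones held 2126. Combinations of 1 width with 1 score that occurred in at least 10 narrow sample 2-only regions numbered 99, and together accounted for 34.5% (33.4 to 35.6%) of them. No combination reached 10 among the wide sample 2-only regions. The same held for shared regions, with 35.4% (34.4 to 36.4%) of the narrow ones in such combinations and none of the wide ones. The most frequent combination was a width of 54 bp with a score of 83.89, in 109 sample 2-only regions. At 55 bp the score 84.88 occurred in 94 regions, and at 56 bp the score 85.86 in 95, so that over these widths this score moved by about 1 unit with each base. The score 84.88 was not confined to 55 bp, since narrow sample 2 regions held it at 15 widths from 55 to 90 bp. At the modal width of 56 bp, 6 scores accounted for 299 of the 595 sample 2-only regions.

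Several frequent scores recurred at many widths, and most regions with the 3 commonest of these were without a counterpart. The score 117.98 occurred in 225 narrow sample 2 regions of 22 different widths between 53 and 91 bp, and 189 of them (84.0%, 78.5 to 88.5%) had no sample 1 overlap. Of the 517 narrow regions with another score within 2 units of it, 42.7% (38.4 to 47.1%) had none. For the score 106.15, at 26 widths, the values were 177 of 197 regions (89.8%, 84.8 to 93.7%) against 54.0% (50.4 to 57.7%) of their neighbours in score. For 130.10, at 17 widths, they were 77.6% (70.2 to 83.8%) against 37.2% (32.6 to 42.0%). Frequent scores found at 1 or 2 widths were mixed. The score 116.77, at 2 widths, had 52.3% (42.5 to 62.1%) unmatched against 55.7% of its neighbours, and 104.28, at 2 widths, had 59.5% (51.3 to 67.3%) against 64.3%. At 1 width each, the score 85.86 had 84.1% (75.998 to 90.3%) unmatched against 55.6%, 83.89 had 78.4% (70.6 to 84.9%) against 61.8%, and 95.49 had 67.8% (58.7 to 75.98%) against 55.3%.

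Over all scores held by at least 10 narrow regions, 3776 regions had a score found at 10 or more widths, and 73.4% (72.0 to 74.8%) of them were unmatched. The 5390 regions with a score found at 1 or 2 widths were unmatched in 41.4% (40.1 to 42.8%). The difference was present within bands of score, at 81.4% and 50.7% between 80 and 100, at 78.6% and 40.5% between 100 and 120, and at 60.02% and 25.1% between 120 and 160. It was also present among regions of 55 to 64 bp, at 74.8% and 40.4%. Regions with a widely recurring score had the next sample 2 region at a median of 17.5 kb, and the others at 15.7 kb. Chromosome X held 7.42% of regions with a score at 10 or more widths, 4.62% at 1 or 2 widths and 1.83% at 3 to 9 widths. Between scores of 80 and 100 the values for 10 or more and for 1 or 2 widths were 4.89% and 4.32%. They were 6.85% and 3.52% between 100 and 120, and 10.8% and 5.39% between 120 and 160. Among regions of 55 to 64 bp they were 8.67% and 4.55%. These classes were formed after the scores had been seen, a frequent score can be found at more widths because it is frequent, and what sets a score in the peak caller is not stated.

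The 10 highest-scoring sample 2-only regions comprised 6 wide and 4 narrow ones. The first, with a score of 1812.07, was a 1221 bp region at chr17:39984623-39985843, and ranked 2 in the whole sample 2 list. It lay 898 bp from a sample 1 region that scored 3045.58 and was itself shared. The second, at chr11:100068924-100069038, scored 339.11 and ranked 113, so a wide interval in score separates the first from the others. Next came a 595 bp region at chr1:31850138-31850732, with a score of 320.32, at 210.7 kb from any sample 1 region. A 614 bp region at chr8:128093478-128094091 scored 278.59, and a 459 bp region at chr2:181022324-181022782 scored 267.75. On chromosome 7, a 442 bp region from 125386799 to 125387240 scored 265.13. These 5 regions after the first were wide and all more than 10 kb from sample 1 regions, and the nearest sample 1 region of each was itself shared.

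The narrow ones among the 10 were 63 to 71 bp wide. The highest lay at chr6:117686185-117686247 with a score of 264.40. The others were at chr15:24264677-24264747 (score 250.20), at chr1:143587653-143587715 (250.07) and at chr13:61068355-61068420 (235.91). The last score was tied among 3 sample 2-only regions. Their gaps to sample 1 ran from 22.8 kb to 123.6 kb.

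The gap to sample 1, counted as the bases between facing edges, was rarely short. The median gap of the sample 2-only regions was 26.8 kb (order-statistic 95% interval 25.9 to 27.6 kb), with quartiles of 9.21 and 66.2 kb. Only 51 of the 11170 (0.457%, 0.340 to 0.5999%) lay within 100 bp of a sample 1 region, and 486 (4.35%) within 1 kb. A further 73 lay at 100 to 199 bp, and 43, 48 and 43 in the next bins of 100 bp. For shared regions the gap was taken to the nearest sample 1 region that they do not overlap, and its median was 23.9 kb (23.3 to 24.5 kb), with 0.394% within 100 bp and 4.53% within 1 kb. For unmatched regions below the floor the median was 32.3 kb (31.0 to 33.2 kb). The sample 2-only regions thus lay between these sets, and within 2 kb the cumulative shares were 7.61% and 7.73% for sample 2-only and shared regions.

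**Figure D4:**
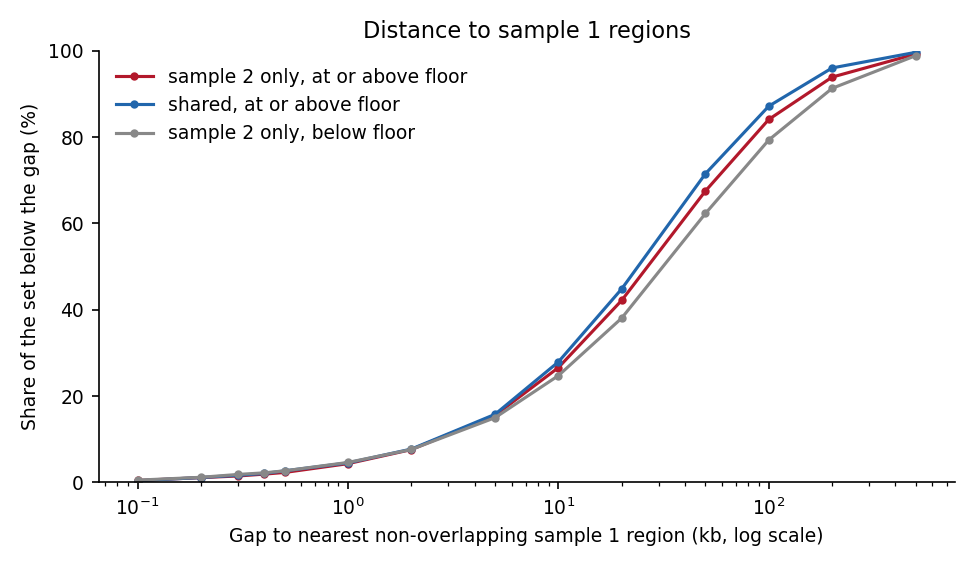
Cumulative share of each set in percent (vertical) against the gap to the nearest sample 1 region not overlapped, in kb on a log scale (horizontal), for sample 2-only regions at or above the floor, shared regions and sample 2-only regions below the floor. The curves run together up to a few kb and separate beyond 10 kb, where the medians are 26.8, 23.9 and 32.3 kb.

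Median gaps were alike over the widths, while short gaps were more frequent in wide regions. Narrow sample 2-only regions had a median gap of 27.3 kb (26.2 to 28.3 kb), those of 100 to 249 bp 25.3 kb (23.6 to 26.8 kb) and those of 250 bp or more 28.7 kb (24.0 to 32.1 kb). The share within 1 kb was 3.77% (3.35 to 4.22%) of the narrow ones, 5.41% (4.64 to 6.27%) of those of 100 to 249 bp and 7.38% (4.997 to 10.4%) of those of 250 bp or more. In shared regions of these widths it was 4.31%, 4.68% and 8.42%. The sample 1 region nearest to a sample 2-only region was itself unmatched in 19.1% (18.4 to 19.9%) of cases, close to the 19.5% of all sample 1 regions. Within 1 kb it was 17.5% (14.2 to 21.2%), so sample 1 regions next to sample 2-only regions had their own sample 2 partner about as often as others.

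The smallest gap was 1 bp, between the sample 2-only region at chr14:76637638-76637703 and a sample 1 region from 76637705 to 76637863. On chromosome 16, 3 bp separated the region from 10763496 to 10763598 from the next sample 1 region. The other 3 of the 5 closest were all on chromosome 5, from 149800816 to 149800869, from 73258018 to 73258073 and from 120237974 to 120238111, with gaps of 14, 20 and 24 bp. Of the 5 sample 1 regions concerned, 4 overlapped another sample 2 region. These sample 2-only regions scored between 82.79 and 101.34.

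At the far end, 83 sample 2-only regions lay 500 kb or more from sample 1. Of the 5 farthest, 4 were in the same stretch of chromosome 4 from 111151286 to 114391596, 3240 kb without a sample 1 region. The farthest, from 113020658 to 113020713, was 56 bp wide, had a score of 117.98 and lay 1371 kb from sample 1. The fifth was at chr10:129770184-129770287, with a score of 140.26 and a gap of 1193 kb. Among the intervals between neighbouring sample 1 regions, 70.1% held no sample 2-only region, 20.6% held 1 and 6.46% held 2. The most in an interval was 12, at chr16:80032138-81788145, with scores of 72.87 to 129.23, and 8 of the 12 were narrow. The densest of those with 8 was at chr10:39775263-40079504, which holds 8 sample 2-only regions in 304.2 kb and no other sample 2 region. These intervals were singled out after their counts had been seen.

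Few sample 2-only regions had another one close by, and the same held for shared regions. The median distance to the next one was 63.4 kb (61.3 to 65.1 kb), against 39.6 kb (38.5 to 40.7 kb) between neighbouring shared regions, which are more numerous. Of the 11170, 313 (2.80%) had another within 1 kb and 862 (7.72%) within 5 kb. Of the shared regions, 3.34% had another shared one within 1 kb and 10.8% within 5 kb. Joined at gaps under 5 kb, the sample 2-only regions formed 10308 single regions, 397 pairs, 20 runs of 3 and 2 runs of 4. The runs of 4 lay at chr10:92887638-92900542, where all were narrow, and at chr14:122868097-122874585, where 1 was narrow. Counting every other sample 2 region, the nearest was at a median of 15.3 kb.

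The density of sample 2-only regions over the whole span of the lists was 4.34 per Mb. Among the autosomes it ran from 3.70 per Mb on chromosome 14 (0.853 times the share of spanned length, 0.778 to 0.934) to 5.43 per Mb on chromosome 11 (1.25 times, 1.16 to 1.35). Chromosome 5 followed with 808 regions and 5.41 per Mb (1.25 times, 1.16 to 1.33). Chromosome X had 440 regions and the lowest density, 2.73 per Mb, or 0.628 times its length share (0.572 to 0.688). Intervals above 1 were seen on 6 chromosomes and intervals below 1 on another 6. Chromosome 8 held 1.17 times its length share (1.08 to 1.26) and 1.05 times in shared regions (0.983 to 1.12). Chromosome 13 held 0.905 times (0.826 to 0.990) and 1.05 times in shared regions (0.980 to 1.13). Counts per window varied more than the intervals assume, so the intervals are too narrow.

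Over all widths together, the deficit on X was smaller for sample 2-only than for shared regions, and in both it differed by width. Shared regions on X made up 0.494 times the length share (0.452 to 0.539). Narrow sample 2-only regions reached 0.759 times (0.684 to 0.838) and wide ones 0.342 times (0.270 to 0.428). In shared regions it was 0.642 times (0.577 to 0.712) for narrow and 0.317 times (0.267 to 0.373) for wide ones. Within each width class the intervals of sample 2-only and shared regions thus overlapped. On X 83.0% (79.1 to 86.4%) of the sample 2-only regions were narrow, against 68.1% (67.2 to 69.0%) on the autosomes. The shared regions had the same tilt, with 70.8% (66.6 to 74.8%) narrow on X and 54.0% (53.2 to 54.8%) on the autosomes. Seen as the unmatched share of sample 2 regions at or above the floor, X had 47.5% (44.2 to 50.7%) and the autosomes 41.3% (40.7 to 41.9%). Within width classes it was 51.4% (47.7 to 55.1%) and 47.0% (46.2 to 47.8%) for narrow regions and 34.6% (28.3 to 41.3%) and 32.8% (31.9 to 33.7%) for wide ones. The part of the excess on X that is left within a width class is thus smaller, and for wide regions lies within the interval. The median gap to sample 1 was 64.9 kb on X and 26.1 kb on the autosomes.

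**Figure D5:**
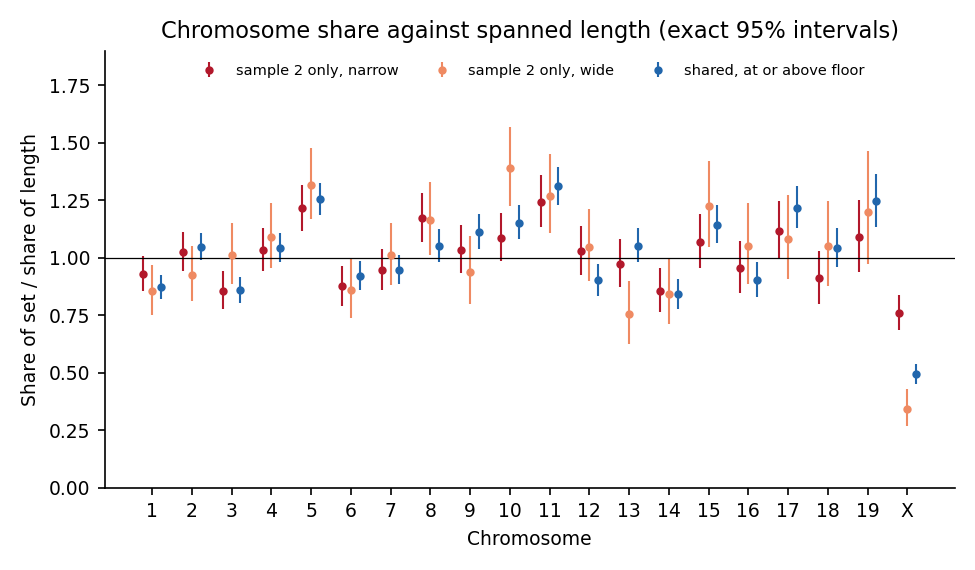
Share of each set on a chromosome divided by that chromosome's share of spanned length (vertical) for chromosomes 1 to 19 and X (horizontal), for narrow and wide sample 2-only regions and shared regions at or above the floor, with exact 95% intervals and a line at 1. All are low on X, at 0.759 for narrow and 0.342 for wide sample 2-only regions and 0.494 for shared regions of all widths together.

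Along chromosomes, the sample 2-only regions were most frequent where shared regions were frequent. Over 2425 autosomal windows of 1 Mb, the median count was 4, the highest 20, and 119 windows held none. The variance of the count was 2.03 times its mean, against 3.36 times for shared regions. The count of sample 2-only regions went with that of shared regions at a Spearman's rho of 0.541 across windows, which share the libraries and are not independent. For narrow and wide sample 2-only regions taken separately, rho with shared regions was 0.504 and 0.342. Across the 19 autosomes, the density of sample 2-only regions went with protein-coding genes per Mb at a Pearson's r of 0.441, and that of shared regions at 0.592. Narrow regions did not differ in this, with r of 0.495 for sample 2-only and 0.492 for shared ones. For wide regions r was 0.291 and 0.666. For regions of 250 bp or more, which are few, r was 0.093 for sample 2-only and 0.497 for shared ones. Spearman's rho for these was 0.167 and 0.267. These values are descriptions over chromosomes, with genes counted in a GRCm38 table.

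The window with most sample 2-only regions was at chr4:138000001-139000000, which held 20 of them and 17 shared regions. It includes the 553 bp region from 138469443 to 138469995 with a score of 223.26. Windows at chr11:102000001-103000000 and at chr17:27000001-28000000 held 18 each, and the window at chr5:120000001-121000000 held 17. A further 5 windows held 16. Of these, 2 adjoin the chromosome 5 window on the side of lower coordinates, from 118000001 to 120000000, so 3 consecutive Mb of chromosome 5 held 17, 16 and 16. In the chromosome 4 window, 54.1% of the sample 2 regions at or above the floor were unmatched, and in the fullest chromosome 11 window 47.4%, against 41.5% over all. It was 52.9% in the chromosome 17 window and 42.5% in the chromosome 5 window with 17. Among the 5 windows holding 16 it ran from 35.6% at chr11:117000001-118000000 to 57.1% at chr5:119000001-120000000. At chr4:139000001-140000000, which held 15, it was 36.6%. The windows were picked for their count of sample 2-only regions, which raises this share.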

How the data were processed

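The authors deposited 1 list of called regions per sample, with chromosome, start, end, name and score, without column names. The score was used as the authors deposited it, and its scale is not stated. Region names carry the MACS prefix. Bowtie 0.12.7, bedtools 2.11.2 and mm9 are named in the submitters' processing notes. The caller's version, its thresholds and any control are not stated there. Each list belongs to 1 sample, and the reads of 2 lanes were combined after alignment, per the labels' protocols.

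Overlaps of at least 1 bp and gaps were computed in Python 3.11.15 (pandas 2.3.3, numpy 2.4.6, scipy 1.17.1), checked on simulated data, and compared with bedtools 2.31.1, which gave the same 11170 regions. Shares carry exact 95% intervals and medians order-statistic 95% intervals. The length of a chromosome was the distance between its outermost regions. Depth is unknown, so no count test was run. Coordinates count from 1.

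The members, width boundary and comparisons were chosen with earlier results of these data known. Named regions were the 10 highest-scoring, the 5 closest to and the 5 farthest from sample 1, the 5 fullest windows of 1 Mb and the chromosomes of highest and lowest density. Others were named after their values were seen. Genes and sequences were left out, because no mm9 annotation or sequence was used here. Alternatives changed the overlap rule, the floor, the width boundary, the chromosomes and the sample 1 list.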

Additional observations from a re-analysis of the deposited data

How the results depend on the processing

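Of 27 alternatives, 14 left a value within its interval or, for a count, within 1.5 times. The number of sample 2-only regions was 4688 with a score floor of 100 and 21919 with no floor, both by construction. It was 14431 when only a reciprocal overlap of 50% counted as a match, and 10410 with sample 2 limited to as many top-scoring regions as sample 1 has. The narrow share was 65.3% with a boundary of 90 bp, 71.6% with 110 bp and 83.4% with a floor of 100. The unmatched share of narrow regions was 48.3% and 46.2% with these boundaries. Against the upper 50% of sample 1 regions by score, the median gap was 55.2 kb, since fewer regions were left to be near. The share on X was 0.759 times its length share for narrow, 0.342 for wide and 0.728 for regions scoring at least 100. Against sample 2 regions at or above the floor in place of length it was 1.14, above 1 instead of below. The unmatched share of regions of 250 bp or wider was 53.8% with a floor of 100. The alternatives for unmatched shares and for the length of the sample 2 list were chosen after seeing the data. No paired analysis was possible because the 2 samples form 1 group. Neither sample could be left out, since the rule needs both lists, and the alternatives for genes and sequences were not run.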

Other observations

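Outside the chromosomes of the rule, 54 sample 2 regions on chromosome Y and the mitochondrial genome reached the floor, and 36 of them had no sample 1 overlap. On the chromosomes of the rule it was 11170 of 26898, or 41.5%.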
